A study of Mus musculus with 16 samples.

Results

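Activity-regulated immediate early genes were followed across the prefrontal cortex of mice in which β-cat was manipulated. The group was a named list of 40 genes, and all 40 were found by symbol among the 23284 genes of the deposited table. RNA from 16 mice, 4 of each genotype, was sequenced as 1 library per mouse. All mice were 2 to 3 months old and of both sexes. The paper gives a reversed light/dark cycle under its behavioural assays, and not separately for the sequenced mice. APC cKO mice carried APC fl/fl, which removes the main negative regulator of β-cat. β-cat cOE mice carried ctnnb1 fl(ex3)/+, from which a stabilised β-cat is made. APC/β-cat cKO mice carried APC fl/fl and ctnnb1 fl/fl, and lose both proteins. All 3 lines carried CamKIIα-Cre-93, a Cre transgene of cortical and other forebrain pyramidal cells that recombines after birth. Controls were Cre-negative littermates drawn from all lines, so an effect of Cre and an effect of the floxed alleles cannot be told apart.

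Classical immediate early genes are switched on within minutes of neuronal firing, without new protein synthesis. Not every member of the list need share that timing, which was not measured here. Calcium entry and MAP kinase signalling activate CREB and SRF, which are already bound near these genes, and the RNAs are then quickly degraded. Many encode transcription factors (Fos, Egr and Nr4a families, Npas4), others feed back on signalling (Dusp phosphatases), and some act at the synapse or are secreted (Arc, Homer1, Bdnf). In the cortex they report recent activity, so their level at dissection depends on what the animal was doing just before.

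The deposited values were read as log2(FPKM + 1) and turned back into FPKM, fragments scaled to transcript length and library total, which is a level per length. Differences are on log2(FPKM + 0.1), and were tested with limma over 13978 genes whose mean reached 0.5 FPKM. All 40 members passed that filter. The depth is unknown, since the table holds no fragment counts, and 5726 to 6649 genes per library were at 0. The targeted gene Apc ranged from 40.8 to 50.1 FPKM in controls and from 38.8 to 49.5 FPKM in β-cat cOEs, and from 7.85 to 17.1 FPKM in APC cKOs and 6.80 to 12.2 FPKM in APC/β-cat cKOs. The other targeted gene, Ctnnb1, which encodes β-cat, did not show the labels in its gene value. Its mean was 160 ± 4.54 FPKM (SD, n = 4) in controls and 155 ± 2.55 FPKM in APC/β-cat cKOs, with 170 ± 10.8 FPKM in APC cKOs and 159.7 ± 4.43 FPKM in β-cat cOEs. The protein is not measured by these files, so "raised" and "lowered" β-cat name the genotypes only. By immunoblot of prefrontal cortex, the paper reports more β-cat protein in β-cat cOEs and APC cKOs than in controls. It reports much less in APC/β-cat cKOs. Xist and Y-linked genes marked replicate 1 of the controls and replicate 1 of the APC cKOs as female, and the other 14 mice as male. The 8 excitatory neuron markers, with Slc17a7 and Camk2a among them, summed to 1093 to 1410 FPKM per library, so the markers of the labelled tissue were present. In bulk tissue, fewer cells that express a gene and less RNA per cell cannot be told apart.

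The promoters of these genes were read next, since CREB binds the cAMP response element (CRE) and SRF the CArG box. RefSeq promoters (GRCm38.p6, the 250 bases before a start) were at hand for 31 of the 40 members. Both strands were searched, except for the TATA letters, which were read on the strand of the gene only. The CRE core TGACG was in 23 of the 31 (74.2%), against 30.1% of 9892 tested genes with a promoter and 19.8% of all 27025 genes. The full CRE TGACGTCA, which contains the core, was in 5 of the 31 (Maff, Dusp1, Btg2, Plk2 and Scg2), against 1.77% of all genes and 3.09% of tested genes. The CArG box was in 2 (Egr2 and Dusp5), against 1.62% (1.46%). Sites beyond the 250 bases were not read, so no match here does not mean that a gene lacks the site. Egr1, Egr3, Arc, Dusp4, Ier2, Trib1, Sik1, Nptx2 and Vgf had no promoter entry and were not read at all. The TCF/LEF letters CTTTGAT or CTTTGAA, through which β-cat acts on its targets, were in 1 (Scg2), against 8.63% (6.18% of tested genes). EGR sites (GCGGGGGCG or GCGTGGGCG) were in 5, against 3.47% (6.93% of tested genes), and the TATA letters TATAAA in 5, against 8.94% (4.63%). The AP-1 letters TGACTCA or TGAGTCA were in 0 of 31, against 5.16% (3.69%). A gene with several annotated starts (5 for Egr2, 7 for Bdnf) was counted if any of them had the letters. A match of letters is a description and not a bound site.

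The promoters of Fos, of the 5 genes with a promoter entry among the 7 whose levels moved most closely with Fos (described further on), and of Jun, which did not move with it, are shown so that they can be compared. Capitals mark CRE cores (TGACG, or CGTCA on the other strand), the CArG box in Egr2 and the full CRE in Dusp1. Positions count back from the start. In Fos (chr12:85473640-85473889, + strand) cores begin at -129 and -66. In Junb (chr8:84978749-84978998, - strand) 1 begins at -106. In Egr2 (chr10:67537619-67537868, + strand, 1 of 5 annotated starts) cores begin at -111 and -55 around a CArG box at -72. Of its other starts, start 1 had neither, and start 2 had a CArG box but no core. In Egr4 (chr6:85513590-85513839, - strand) they begin at -177 and -109. In Nr4a1 (chr15:101266596-101266845, + strand) 4 cores begin at -233, -213, -69 and -40. In Dusp1 (chr17:26508473-26508722, - strand) the full CRE begins at -143. In Jun (chr4:95052223-95052472, - strand) there was no core in this window.
Fos: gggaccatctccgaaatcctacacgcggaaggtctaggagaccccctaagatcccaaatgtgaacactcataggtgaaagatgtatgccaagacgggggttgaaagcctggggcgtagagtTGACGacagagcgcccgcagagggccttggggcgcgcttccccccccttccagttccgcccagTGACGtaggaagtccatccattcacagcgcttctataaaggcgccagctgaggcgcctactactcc
Junb: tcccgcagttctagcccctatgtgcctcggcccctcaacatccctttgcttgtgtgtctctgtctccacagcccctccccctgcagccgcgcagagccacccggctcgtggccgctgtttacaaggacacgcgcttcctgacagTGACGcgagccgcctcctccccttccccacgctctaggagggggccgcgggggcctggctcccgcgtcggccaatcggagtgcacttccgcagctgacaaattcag
Egr2: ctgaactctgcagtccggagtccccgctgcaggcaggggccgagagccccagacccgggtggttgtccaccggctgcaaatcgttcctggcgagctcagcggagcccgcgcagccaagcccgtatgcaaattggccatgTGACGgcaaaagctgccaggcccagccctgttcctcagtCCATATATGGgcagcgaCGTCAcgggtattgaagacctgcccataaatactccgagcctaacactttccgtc
Egr4: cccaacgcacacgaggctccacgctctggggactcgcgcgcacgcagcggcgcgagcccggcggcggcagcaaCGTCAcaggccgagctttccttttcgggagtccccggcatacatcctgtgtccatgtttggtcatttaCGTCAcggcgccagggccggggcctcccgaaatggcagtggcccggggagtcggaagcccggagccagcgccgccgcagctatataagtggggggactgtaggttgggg
Nr4a1: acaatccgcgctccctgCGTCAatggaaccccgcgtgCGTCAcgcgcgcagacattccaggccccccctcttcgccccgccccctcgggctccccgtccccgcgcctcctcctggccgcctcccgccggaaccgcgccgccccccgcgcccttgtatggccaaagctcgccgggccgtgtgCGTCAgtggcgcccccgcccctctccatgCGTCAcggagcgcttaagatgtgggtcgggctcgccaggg
Dusp1: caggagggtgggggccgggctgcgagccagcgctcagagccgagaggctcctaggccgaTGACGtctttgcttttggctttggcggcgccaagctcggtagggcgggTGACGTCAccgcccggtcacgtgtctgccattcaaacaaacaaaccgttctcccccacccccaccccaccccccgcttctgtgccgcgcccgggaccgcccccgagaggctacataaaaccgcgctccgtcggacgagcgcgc
Jun: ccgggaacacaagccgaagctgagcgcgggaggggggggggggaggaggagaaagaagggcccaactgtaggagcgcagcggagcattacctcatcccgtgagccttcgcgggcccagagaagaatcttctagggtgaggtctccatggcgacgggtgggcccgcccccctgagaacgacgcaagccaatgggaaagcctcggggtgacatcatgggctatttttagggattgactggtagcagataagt

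Mean levels over the 16 libraries ran from 0.541 FPKM for Atf3 to 166 FPKM for Scg2, the precursor of secretogranin peptides. Plk2 (87.3), Egr1 (78.8), Vgf (62.6), Homer1 (55.9) and Arc (53.9 FPKM) followed Scg2. Levels differed much more between mice of one genotype than for most genes. The median within-genotype SD of the members was 0.37 on the log2 scale, against 0.15 over all genes tested. It was 0.88 for Atf3, 0.75 for Egr2, 0.75 for Npas4, 0.66 for Arc and 0.63 for Fos, each above the SD of at least 97% of genes. Jun (0.11) and Plk2 (0.11) varied less than most genes. The highest library was 7.70 times the lowest for Egr2, 6.35 times for Npas4 and 5.66 times for Arc, but 1.27 times for Plk2 and 1.51 times for Jun.

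**Figure D1:**
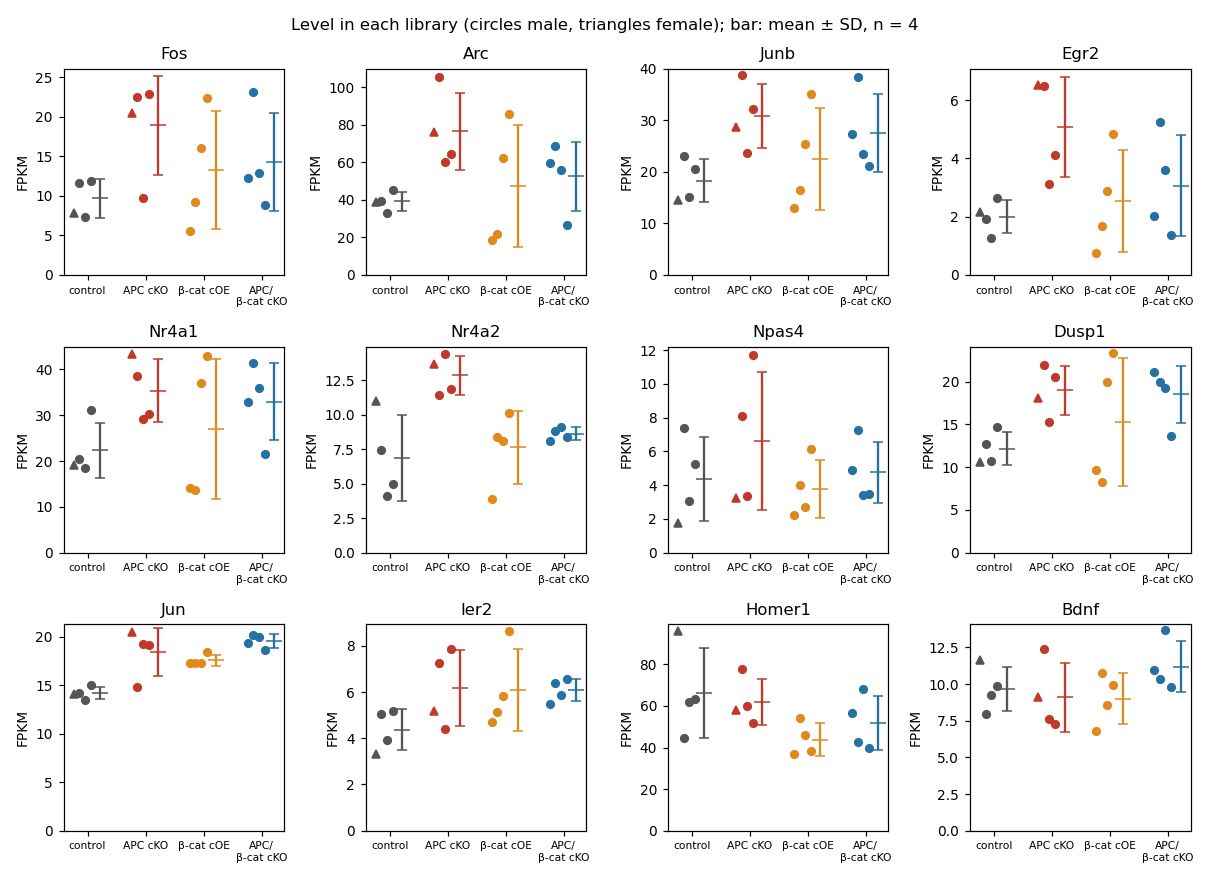
FPKM (vertical axes, from 0) of 12 members in each of the 16 libraries, with circles for male and triangles for female mice and a bar at the mean ± SD of each genotype (n = 4). Jun lay within a narrow range in controls, β-cat cOEs and APC/β-cat cKOs, but ran from 14.8 to 20.4 FPKM in APC cKOs. Arc in β-cat cOEs spread from 18.6 to 85.9 FPKM.

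The question of the design was whether raised β-cat, with or without APC, and lowered β-cat shift these genes. At an adjusted p under 0.05 the only member called in any comparison of genotypes was Jun, higher in APC/β-cat cKOs. Against controls, APC cKOs had 0 of 40 members called (background 0.0429% of all genes) and β-cat cOEs 0 (0.0143%), while 1 was called in APC/β-cat cKOs (0.207%). Set against APC/β-cat cKOs, APC cKOs had 0 members called (0.215%) and β-cat cOEs 0 (0.229%). The APC cKO and β-cat cOE lines differed in 0 members (0.0429%). The elevated lines (APC cKO and β-cat cOE) against the other 2 groups gave 0 (0.0572%), and the test of any difference among the 4 genotypes 0 (0.250%).

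At an unadjusted limma p under 0.05, 14 of 40 members were higher in APC cKOs (background 4.82%) and 0 were lower (5.19%). Without both female libraries there were 4, without control replicate 3 there were 6, and without APC cKO replicate 2 there were 8. In β-cat cOEs 2 were higher (2.30%), Jun and Ier2, and 1 lower (2.77%), Homer1. In APC/β-cat cKOs 5 were higher (7.17%), namely Jun, Ier2, Dusp1, Fosb and Junb, and 0 lower (7.03%). In the elevated lines against the other 2 groups 0 were higher (3.68%) and 0 lower (5.16%). These counts, both directions together, hung on single libraries. In β-cat cOEs there was 1 without control replicate 1 and 7 without control replicate 2. In APC/β-cat cKOs there was 1 without control replicate 3 and 1 without APC/β-cat cKO replicate 2, 8 without APC/β-cat cKO replicate 4 and 9 without control replicate 2. The elevated lines gave 6 without β-cat cOE replicate 1, and 2 without APC cKO replicate 2 or control replicate 2. These comparisons with control share the same 4 control libraries. Counting genes whose libraries did not overlap gave 8 higher (2.49%) and 0 lower (2.98%) in APC cKOs. It gave 1 higher (1.46%) and 0 lower (1.62%) in β-cat cOEs, and 3 higher (2.98%) and 0 lower (2.23%) in APC/β-cat cKOs.

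The 40 members had a median log2 difference from controls of 0.36 in APC cKOs, where that of all genes was -0.004. The members' median was 0.01 in β-cat cOEs (all genes -0.004), and 0.25 among APC/β-cat cKOs (all genes 0.003). The value was above 0 for 37 of 40 members in APC cKOs, for 21 in β-cat cOEs and for 32 of the 40 among APC/β-cat cKOs. Over all genes the shares above 0 were 48.6%, 48.5% and 50.9%. Many members moved together between mice of 1 genotype (described further on), so counts of members are not counts of independent genes. Without β-cat cOE replicate 1 the β-cat cOE count was 30 and its median 0.13, and without replicate 4 they were 12 and -0.08. The median of APC/β-cat cKOs was 0.15 without its replicate 2 and 0.35 without its replicate 4. Between APC cKOs and β-cat cOEs, the lines labelled for raised β-cat, the median was 0.37, with 37 members above 0 (49.8% of all genes). At an unadjusted limma p under 0.05, 11 were higher in APC cKOs (background 3.63%) and 0 lower (3.93%). The smallest adjusted p among members in that comparison was 0.457 (Fosb). By role, the medians of the 3 lines (APC cKO, β-cat cOE, then APC/β-cat cKO) were 0.48, 0.05 and 0.25 for the 19 transcription factors. They were 0.42, 0.04 and 0.31 for the 12 genes grouped as signalling feedback, and 0.11, -0.07 and 0.16 for the 9 synaptic and secreted effectors. The feedback group is a broad label, since beside the Dusp genes, Trib1 and Sik1 it holds Ier2, Btg2, Gadd45b, Gadd45g, Plk2 and Plk3.

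**Figure D2:**
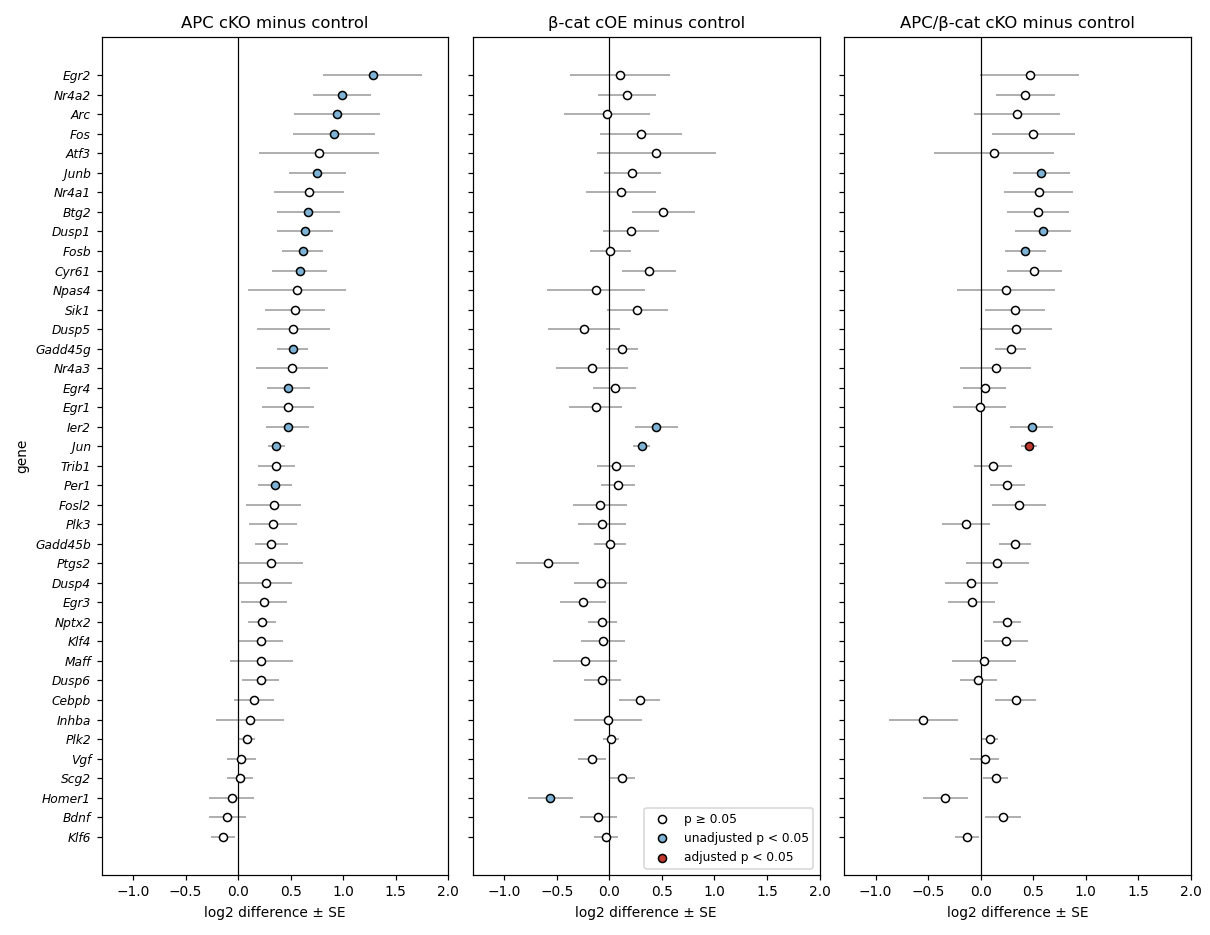
Log2 difference from control (horizontal axes, ± SE from limma, n = 4 per genotype) of the 40 members in APC cKOs, β-cat cOEs and APC/β-cat cKOs, ordered by the value in APC cKOs. White points have p of 0.05 or more, blue points an unadjusted p under 0.05, and the 1 red point, Jun in APC/β-cat cKOs, an adjusted p under 0.05.

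Among the transcription factors, Jun is the AP-1 partner of the Fos proteins. It was at 14.1, 14.2, 13.5 and 15.03 FPKM in controls (replicates 1 to 4, the order used throughout). It was at 19.4, 20.2, 19.95 and 18.6 FPKM in APC/β-cat cKOs, all above every control. Its level rose by 0.46 on the log2 scale (SE 0.08, limma adjusted p = 0.0245; exact two-sided permutation p = 0.0286, the smallest that 4 against 4 allows). Leaving out control replicate 2 or 3, or any 1 of the 4 APC/β-cat cKO libraries, put the adjusted p over 0.05 (0.0535 to 0.101), with differences of 0.43 to 0.48.

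In β-cat cOEs Jun was at 17.2, 17.3, 17.2 and 18.4 FPKM, also above every control (difference 0.31, SE 0.08, limma adjusted p = 0.946). In APC cKOs it was at 20.4, 14.8, 19.2 and 19.2 FPKM, where replicate 2 lay within the controls (0.36, SE 0.08, adjusted p = 0.204). Leaving out each library in turn, the difference in APC cKOs ran from 0.31 (without APC cKO replicate 1) to 0.47 (without APC cKO replicate 2). The limma adjusted p without replicate 2 was 0.00255. That replicate was the lowest APC cKO library for Jun, so leaving it out favours a rise. The smaller p is therefore not separate evidence of a rise.

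Fos, the AP-1 subunit used most as a marker of active neurons, was at 7.86, 11.6, 7.33 and 11.9 FPKM in controls. It was at 20.5, 22.6, 9.72 and 22.9 FPKM in APC cKOs, where 3 of 4 libraries lay above all controls. It was at 5.56, 9.19, 16.1 and 22.3 FPKM in β-cat cOEs, from below to above the controls, and at 12.3, 23.2, 12.9 and 8.90 FPKM in APC/β-cat cKOs. Means were 9.68 ± 2.43 (SD, n = 4) FPKM in controls and 18.9 ± 6.22 in APC cKOs, a log2 difference of 0.92 (SE 0.39, limma adjusted p = 0.451; exact permutation p = 0.0857). β-cat cOEs differed from controls by 0.30 (adjusted p = 0.966), and the APC/β-cat cKO line by 0.50 (adjusted p = 0.567).

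Junb, another AP-1 subunit, was at 14.6, 23.1, 15.02 and 20.5 FPKM in controls and 28.7, 38.7, 23.7 and 32.1 FPKM in APC cKOs, with no overlap. The difference was 0.75 (SE 0.27, limma adjusted p = 0.371). Among β-cat cOEs, Junb was at 13.0, 16.4, 25.4 and 35.1 FPKM, and in APC/β-cat cKOs at 27.3, 38.3, 23.4 and 21.2 FPKM (differences 0.22 and 0.58, adjusted p = 0.963 and 0.348). Fosb was at 3.17, 1.94, 2.60 and 2.33 FPKM in controls and 4.64, 4.25, 3.32 and 3.32 FPKM in APC cKOs, again without overlap (0.62, SE 0.20, adjusted p = 0.326). In β-cat cOEs it was at 1.88, 2.35, 2.76 and 3.14 FPKM, and in APC/β-cat cKOs at 2.92, 4.57, 3.62 and 2.61 FPKM.

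The Egr zinc finger factors are induced through SRF and CREB. Egr2 was at 2.15, 1.90, 1.27 and 2.64 FPKM in controls and 6.52, 6.50, 3.13 and 4.12 FPKM in APC cKOs, all above every control. This was the highest difference among the members in that line (1.28, SE 0.47, limma adjusted p = 0.384). In β-cat cOEs Egr2 was at 0.759, 1.68, 2.87 and 4.84 FPKM, so that 1 library lay below and 2 above all controls, and in APC/β-cat cKOs at 2.03, 5.24, 3.59 and 1.38 FPKM. Egr4 was at 9.49, 9.06, 7.52 and 7.86 FPKM in controls and 12.6, 14.3, 9.67 and 11.1 FPKM in APC cKOs (0.48, SE 0.20, adjusted p = 0.451). In β-cat cOEs it was at 5.95, 8.53, 9.96 and 11.6 FPKM and in APC/β-cat cKOs at 8.504, 12.5, 8.51 and 6.24 FPKM, overlapping the controls in both.

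Nr4a1 and Nr4a2 are orphan nuclear receptors. Nr4a2 was at 11.02, 7.43, 4.09 and 4.99 FPKM in controls and 13.7, 11.4, 14.4 and 11.9 FPKM in APC cKOs, with no overlap (0.99, SE 0.28, limma adjusted p = 0.310). The female control held the highest of the control values. In β-cat cOEs Nr4a2 was at 3.87, 8.42, 8.12 and 10.1 FPKM, and in APC/β-cat cKOs at 8.13, 8.86, 9.16 and 8.43 FPKM. Nr4a1 was at 19.1, 20.5, 18.6 and 31.2 FPKM in controls and 43.4, 38.5, 29.1 and 30.2 FPKM in APC cKOs (0.67, SE 0.33, adjusted p = 0.520). Nr4a1 in β-cat cOEs was at 14.2, 13.6, 37.1 and 42.8 FPKM, 2 libraries below and 2 above all controls, and in APC/β-cat cKOs at 32.9, 41.5, 35.8 and 21.5 FPKM.

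Npas4, a factor induced selectively by calcium entry, ranged from 1.76 to 7.41 FPKM in controls (1.76, 7.41, 3.09 and 5.25). It was at 3.23, 8.11, 3.36 and 11.7 FPKM in APC cKOs, 2.21, 4.03, 2.73 and 6.12 FPKM in β-cat cOEs, and 4.90, 7.25, 3.42 and 3.49 FPKM in APC/β-cat cKOs. All groups overlapped, with differences of 0.56, -0.13 and 0.24 (limma adjusted p from 0.711 to 0.981). Per1, a clock gene that CREB also induces, was at 13.7, 12.8, 13.5 and 13.6 FPKM in controls, and at 15.4, 20.7, 13.9 and 14.8 FPKM in APC/β-cat cKOs, just above every control (0.25, adjusted p = 0.481). It was at 22.4, 18.3, 15.8 and 13.2 FPKM in APC cKOs (0.35, adjusted p = 0.493) and 11.6, 12.1, 18.0 and 15.97 FPKM in β-cat cOEs. Klf6 was at 18.2, 21.2, 17.2 and 18.8 FPKM in controls and 13.8, 17.6, 17.5 and 19.5 FPKM in APC cKOs, the lowest difference of the members there (-0.14, adjusted p = 0.695). It was at 16.4, 21.5, 18.6 and 17.3 FPKM in β-cat cOEs and 18.5, 14.2, 18.3 and 18.2 FPKM in APC/β-cat cKOs.

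In the signalling feedback group, Dusp1 encodes a phosphatase that switches off MAP kinases. It was at 10.6, 12.7, 10.7 and 14.7 FPKM in controls and 18.0, 21.9, 15.3 and 20.6 FPKM in APC cKOs, with no overlap (0.64, SE 0.27, limma adjusted p = 0.440). Dusp1 in β-cat cOEs was at 9.69, 8.28, 19.9 and 23.3 FPKM, 2 libraries below and 2 above all controls, and in APC/β-cat cKOs at 21.1, 19.9, 19.3 and 13.7 FPKM (0.59, adjusted p = 0.335). Ier2 was at 3.33, 5.05, 3.95 and 5.17 FPKM in controls and 5.49, 6.37, 5.89 and 6.56 FPKM in APC/β-cat cKOs, all above every control (0.48, SE 0.20, adjusted p = 0.312). Ier2 was at 5.19, 7.26, 4.39 and 7.85 FPKM in APC cKOs and 4.69, 5.14, 5.82 and 8.66 FPKM in β-cat cOEs (0.47 and 0.45), so its differences were close in the 3 lines.

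Gadd45g, of a family of stress and DNA repair regulators, was at 8.17, 11.5, 8.90 and 8.25 FPKM in controls and 15.4, 12.4, 11.3 and 13.5 FPKM in APC cKOs, where 3 libraries lay above all controls (0.52, SE 0.15, limma adjusted p = 0.310). It was at 9.71, 9.61, 8.14 and 12.7 FPKM in β-cat cOEs and 9.90, 13.2, 9.47 and 12.5 FPKM in APC/β-cat cKOs. Btg2, an inhibitor of proliferation, was at 3.73, 7.73, 4.41 and 6.33 FPKM in controls and 8.01, 7.77, 5.88 and 14.4 FPKM in APC cKOs (0.67, SE 0.30, adjusted p = 0.468). It was at 6.01, 5.76, 7.45 and 13.2 FPKM in β-cat cOEs and 8.02, 9.26, 8.91 and 5.67 FPKM in APC/β-cat cKOs, which overlapped the controls.

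Among the effectors, Arc directs the removal of AMPA receptors from synapses. It was at 38.95, 39.6, 33.1 and 45.1 FPKM in controls and 76.3, 106, 60.1 and 64.3 FPKM in APC cKOs, all above every control (0.94, SE 0.41, limma adjusted p = 0.464; exact permutation p = 0.0286). In β-cat cOEs it was at 18.6, 21.96, 62.3 and 85.9 FPKM, and no library lay inside the control range (-0.02, adjusted p = 0.999). In APC/β-cat cKOs it was at 59.6, 68.6, 55.8 and 26.4 FPKM, 3 libraries above and 1 below all controls (0.35, adjusted p = 0.720). A mean over β-cat cOEs close to that of controls therefore stood for libraries on both sides of it.

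Homer1 encodes a scaffold that links glutamate receptors to calcium stores, and activity induces its short forms. The gene value does not separate the forms. It was at 96.2, 44.5, 61.7 and 63.1 FPKM in controls, the female control being highest, and 36.6, 54.0, 46.1 and 38.1 FPKM in β-cat cOEs. The difference there was -0.56 (SE 0.21, limma adjusted p = 0.946). It was at 58.1, 78.0, 59.8 and 51.7 FPKM in APC cKOs (-0.06) and 56.5, 42.6, 68.2 and 39.8 FPKM in APC/β-cat cKOs (-0.34, adjusted p = 0.478). Bdnf, the growth factor whose later exons are shared by activity-induced and other transcripts, was at 11.6, 7.95, 9.26 and 9.84 FPKM in controls. It was at 9.10, 12.4, 7.64 and 7.25 FPKM in APC cKOs, 6.80, 10.8, 8.57 and 9.94 FPKM in β-cat cOEs, and 10.97, 10.3, 13.7 and 9.79 FPKM in APC/β-cat cKOs, overlapping throughout (differences -0.10, -0.11 and 0.21).

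Cyr61, a secreted matrix protein, was at 1.63, 3.19, 1.42 and 1.60 FPKM in controls and 2.37, 2.21, 2.87 and 4.29 FPKM in APC cKOs (0.59, SE 0.26, limma adjusted p = 0.466). It was at 2.45, 2.35, 1.91 and 3.22 FPKM in β-cat cOEs and 3.19, 3.01, 2.96 and 1.83 FPKM in APC/β-cat cKOs, and control replicate 2 lay within or above most of these. Ptgs2 (cyclooxygenase-2) was at 5.19, 2.87, 3.89 and 4.91 FPKM in controls and 2.19, 1.60, 5.10 and 2.93 FPKM in β-cat cOEs, the lowest difference among the members there (-0.59, SE 0.30, adjusted p = 0.946). It was at 3.95, 6.82, 4.36 and 5.87 FPKM in APC cKOs and 5.56, 4.50, 5.84 and 3.05 FPKM in APC/β-cat cKOs. Inhba, a subunit of activin, was at 5.84, 2.47, 5.33 and 5.62 FPKM in controls and 4.34, 3.05, 4.63 and 1.48 FPKM in APC/β-cat cKOs (-0.55, SE 0.33, adjusted p = 0.455), where 1 library lay below all controls. It was at 6.29, 5.67, 3.73 and 4.47 FPKM in APC cKOs and 5.38, 4.97, 3.21 and 4.86 FPKM in β-cat cOEs.

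The remaining 19 members ranged in APC cKOs from 0.02 (Scg2) to 0.77 (Atf3), and all 19 had values above 0. In β-cat cOEs 7 had values above and 12 below 0, from -0.25 (Egr3) to 0.45 (Atf3). In APC/β-cat cKOs 14 had values above and 5 below 0, from -0.14 (Plk3) to 0.37 (Fosl2). None of them had an adjusted p under 0.05 in any of these comparisons.

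Seen by library, most members were high or low together in some animals. The median difference of the 40 members from the control mean was 0.58 and 0.52 in APC cKO replicates 1 and 2, and 0.16 and 0.19 in replicates 3 and 4. In β-cat cOEs it was -0.30, -0.06, 0.19 and 0.30. In APC/β-cat cKOs it was 0.20, 0.54, 0.35 and -0.03. In controls it ran from -0.08 to 0.04, but their own mean is the reference, which centres them near 0. APC cKO replicate 1, a female, held the highest value of 15 members, and β-cat cOE replicate 1 the lowest value of 18. The recent behaviour of the mice is not in the labels, and its part in these values was not tested.

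**Figure D3:**
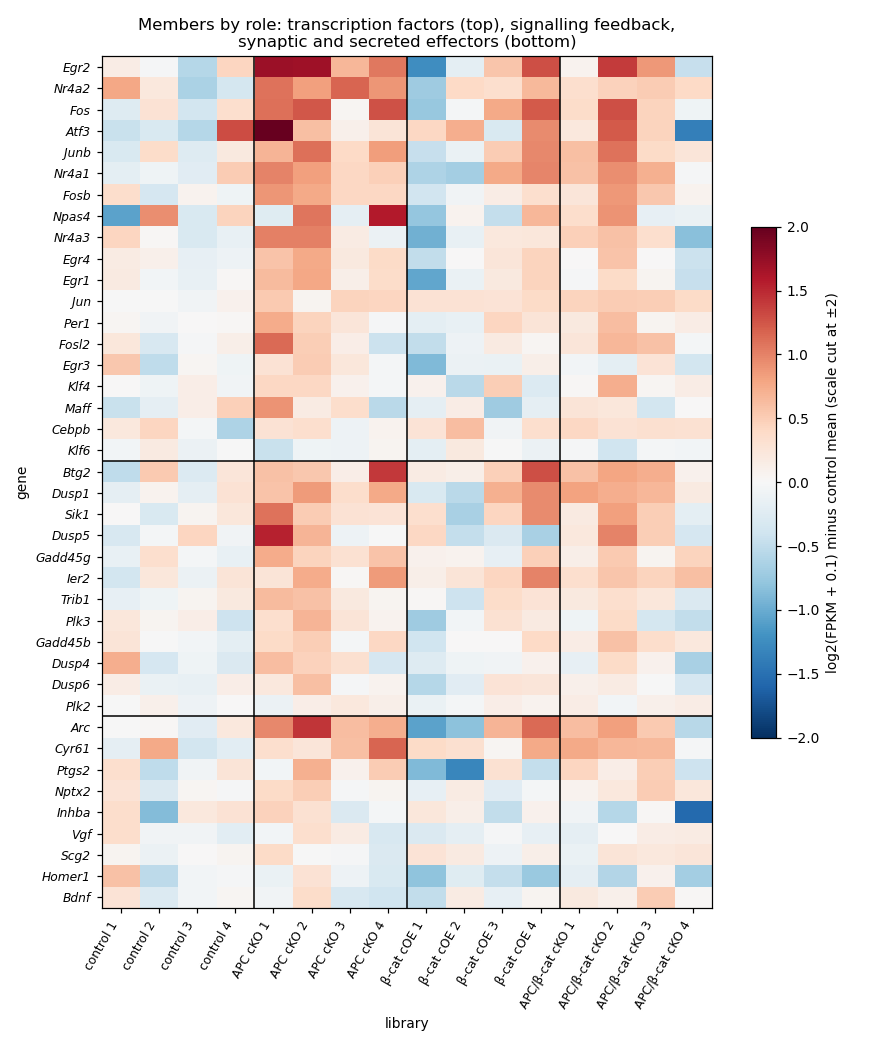
Log2(FPKM + 0.1) of the 40 members (rows, by role) in the 16 libraries (columns, by genotype), as the difference from the control mean, with the colour scale cut at 2 in either direction. APC cKO replicates 1 and 2 are red for most members, and β-cat cOE replicate 1 is blue for many, while the other β-cat cOE libraries differ from it.

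How closely each gene moved with Fos between mice of one genotype was tested with Fos as a covariate beside genotype. Of 39 members other than Fos, 2 had a slope with an adjusted p under 0.05 (background 0.0143%, which is the same 2 genes among 13977). Junb had a slope of 0.65 log2 units per log2 unit of Fos (SE 0.06, limma adjusted p = 8.77e-04) and Egr2 of 1.08 (SE 0.15, adjusted p = 0.0171). At an unadjusted limma p under 0.05, 18 of 39 had a positive slope (1.29%) and 0 a negative one (1.14%). The 7 smallest p-values among all genes belonged to members, and 11 of the 15 smallest. After Junb and Egr2 these were Egr1 (slope 0.55, adjusted p = 0.0565), Egr4 (0.44, 0.0958), Arc (0.88, 0.0958), Nr4a1 (0.70, 0.173) and Dusp1 (0.56, 0.184). Without β-cat cOE replicate 1 and APC/β-cat cKO replicate 2, the libraries farthest from the median of Fos, 0 members were called.

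Outside the members, the smallest adjusted p-values belonged to Cklf (slope 0.56, limma adjusted p = 0.422), Zfp133-ps (-1.61, 0.422), Tnfaip3 (0.32, 0.461), 1810055G02Rik (0.21, 0.503) and Myh7b (0.35, 0.999). Tnfaip3 encodes a brake on NF-κB signalling. Several members had small slopes on Fos. The slope was 0.02 for Jun (SE 0.05), 0.02 for Plk2, 0.02 for Nptx2, -0.06 for Homer1, -0.06 for Scg2 and -0.03 for Klf6, and 0.12 for Bdnf (SE 0.11), each with an adjusted p of 0.999.

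For 5 chosen pairs, Pearson's r of log2 levels centred on the genotype mean was computed over the 16 libraries, with permutations within genotype and Benjamini-Hochberg adjustment over the 5. Fos and Egr2 gave r = 0.90 and Spearman's rho = 0.90 (permutation p = 1.9e-04 and 3.9e-04, adjusted 9.5e-04 and 0.00195). Fos and Arc gave 0.84 and 0.84 (permutation p = 0.00397 and 0.00487, adjusted 0.00662 and 0.00812), and Fos and Nr4a1 0.82 and 0.84 (permutation p = 0.00318 and 0.00374, adjusted 0.00662 and 0.00812). Fos and Npas4 gave 0.67 and 0.65 (permutation p = 0.00589 and 0.0103, adjusted 0.00736 and 0.0129). Fos and Bdnf gave 0.28 and 0.19 (permutation p = 0.376 and 0.531, both the adjusted values too). Without the 2 libraries farthest from the median of Fos, r was 0.80 for Egr2, 0.76 for Arc, 0.76 for Nr4a1 and 0.11 for Bdnf. For Npas4, r was 0.59 (adjusted permutation p = 0.0736), no longer under 0.05, while rho was 0.69 (adjusted permutation p = 0.0352). For Egr2, Arc and Nr4a1 rho was 0.71, 0.67 and 0.68.

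**Figure D4:**
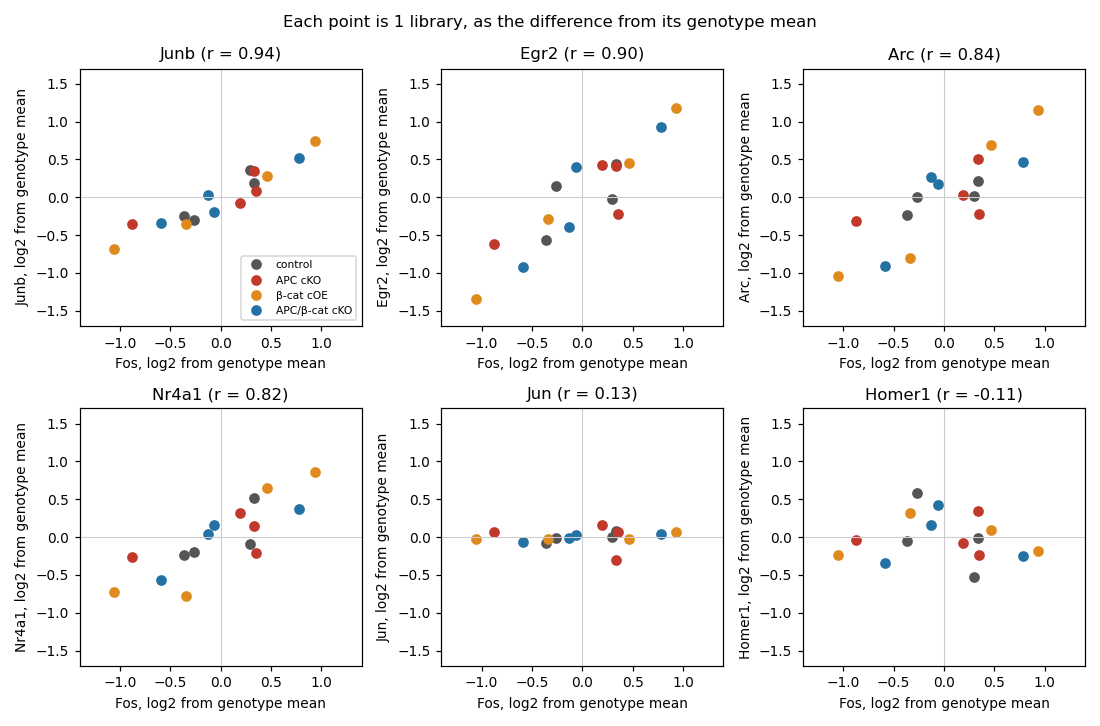
Fos (horizontal axes) against 6 other members (vertical axes) in the 16 libraries, each as the log2 difference from its genotype mean and coloured by genotype. Junb, Egr2, Arc and Nr4a1 lie along a rising line, while Jun (r = 0.13) and Homer1 (r = -0.11) do not.

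Over all 780 pairs of members the median within-genotype r was 0.25 (n = 16 libraries, which share their depth and RNA; a description with no test). Among Fos and the 7 members with the smallest p for a slope on it, the 28 pairs had a median r of 0.86, from 0.64 to 0.94. These 7 were picked for moving with Fos in the same libraries. A high r among them was thus partly set by that choice. Homer1 moved most closely with Bdnf (r = 0.81), Egr3 (0.80), Nptx2 (0.72), which clusters AMPA receptors, and Inhba (0.62). Fos and the members with a positive slope on it at an unadjusted limma p under 0.05 include 14 with a promoter entry, and CRE cores were in 12 of these and in 11 of the other 17 members with an entry.

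**Figure D5:**
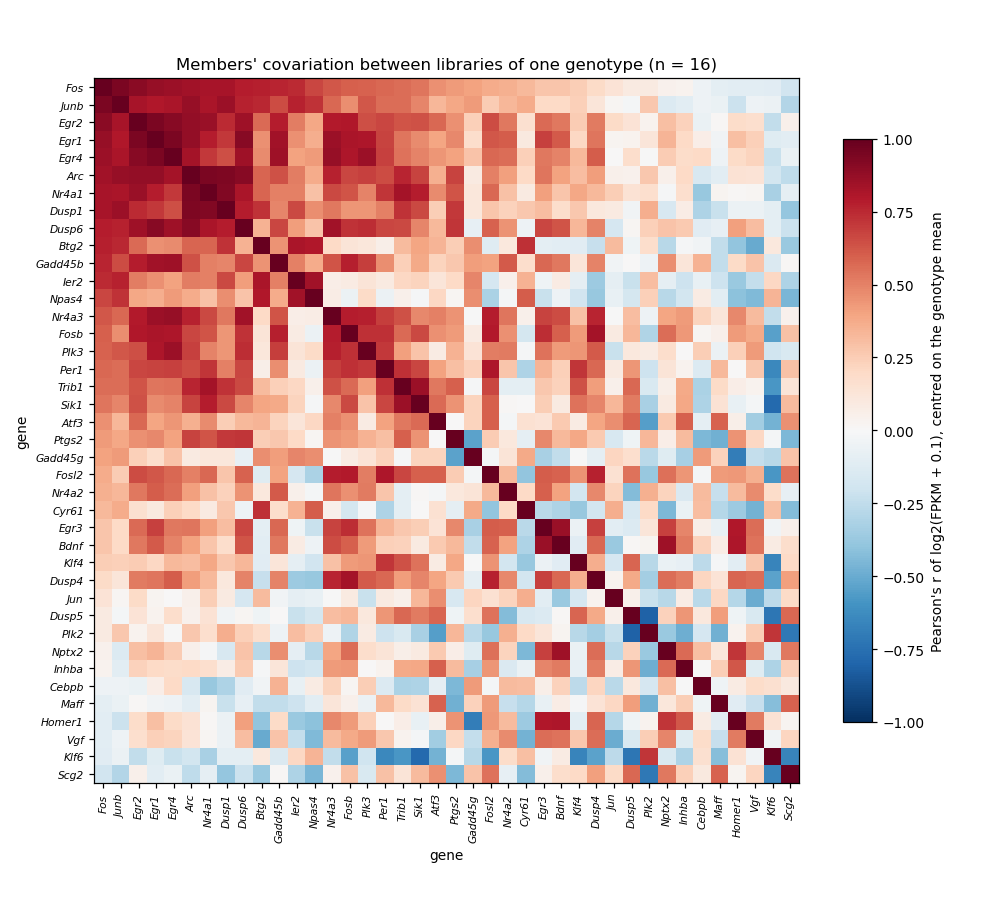
Pearson's r of every pair of the 40 members across the 16 libraries, after centring on the genotype mean, with genes ordered by their r with Fos (both axes). The red block at the upper left holds Fos, Junb, Egr2, Egr1, Egr4, Arc, Nr4a1 and Dusp1, whose pairs have r from 0.64 to 0.94. It is partly set by the ordering on Fos.

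Other genes of the same biology were read beside the members. Of 24 tested genes from a list of 25 other activity-regulated genes, 0 were called in any line, with medians of -0.03, -0.06 and 0.01 in the lines in the same order. The smallest p was that of Syt4 in APC cKOs (-0.23, limma adjusted p = 0.347), Errfi1 in β-cat cOEs (-0.14, 0.946) and Spred1 in APC/β-cat cKOs (-0.44, 0.259). Of 37 upstream genes of the calcium, MAP kinase and CREB/SRF pathways 1 was called, Mapk3 (the kinase ERK1), which rose by 0.46 in APC/β-cat cKOs (SE 0.07, adjusted p = 0.0155). Mapk3 was 0.22 higher in APC cKOs (adjusted p = 0.350), and in β-cat cOEs Camk2d had the smallest p (0.21, adjusted p = 0.946). The medians of that list were -0.06, -0.06 and -0.08.

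Per1 is itself a clock gene, so genes of the clock and its output were read too. In APC cKOs 12 of 14 had values below 0, with a median of -0.17 and the smallest p for Nr1d2 (-0.35, limma adjusted p = 0.110). Values below 0 were found for 11 of 14 in β-cat cOEs (smallest p for Npas2, -0.27, adjusted p = 0.946), and for 10 of 14 among APC/β-cat cKOs (Arntl, -0.25, adjusted p = 0.251). Of 10 glucocorticoid response genes, Zbtb16 had the smallest p in every line, with -0.67, -0.69 and -0.84 (adjusted p = 0.337, 0.946 and 0.176). Of 12 heat shock and hypoxia genes, the smallest p belonged to Pdk1 (-0.39, adjusted p = 0.418), Hmox1 (-0.28, adjusted p = 0.946) and Ddit3 (0.20, adjusted p = 0.276). None of these 3 lists had a called gene, and their part in the members' values was not tested.

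Markers of other cells were read in the same way. In APC cKOs all 6 oligodendrocyte markers had values below 0 (summed level 626 to 751 FPKM, against 712 to 1089 in controls), and all 6 were above 0 in APC/β-cat cKOs (914 to 1032). Of 8 endothelial markers 7 were below 0 in APC cKOs, summing to 58.7 to 77.3 FPKM, against 78.5 to 92.8 in controls. Of 8 markers of striatal projection neurons, all 8 had values above 0 in APC cKOs, summing to 162 to 717 FPKM, against 131 to 519 in controls. All 8 were above 0 in APC/β-cat cKOs too (156 to 519). The smallest p among them was that of Penk in APC cKOs (0.66, SE 0.47, limma adjusted p = 0.659). In APC/β-cat cKOs it was that of Rgs9 (0.28, SE 0.60, limma adjusted p = 0.864). Of 8 excitatory neuron markers 7 were below 0 in APC cKOs, summing to 1093 to 1390 FPKM, against 1260 to 1341 in controls. Of 7 interneuron markers 4 were below and 3 above 0 in APC cKOs (642 to 759 FPKM, against 715 to 838 in controls). In β-cat cOEs 4 were also below and 3 above 0, and in APC/β-cat cKOs 6 and 1. Among these Pvalb had the smallest p in APC cKOs (-0.81, limma adjusted p = 0.209) and in β-cat cOEs (-0.53, adjusted p = 0.946). Of 6 astrocyte markers 5 were above 0 in APC cKOs (723 to 904 FPKM, against 726 to 759 in controls). Gfap had the smallest p there (0.73, adjusted p = 0.328). No marker was at 0 in all libraries, and 0 markers of 8 cell types were called. The part of tissue makeup in the members' values was not tested.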

How the data were processed

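RNA from the prefrontal cortex of 16 mice was sequenced by the authors as paired reads of 100 bases (TruSeq stranded mRNA). The authors mapped the reads to mm10 with TopHat2 2.0.10 and made expression values with Cufflinks2 and Cuffdiff 2.1.1, per the submitters' processing notes. The deposited numbers were taken as log2(FPKM + 1) values, a base that was inferred: FPKM times the median transcript length in kilobases then summed to 592239 to 627186 per library, against 5279898 to 5871089 for natural logs. FPKM had been assumed before the table was read, so the values were turned back into FPKM. All 16 columns were used, and groups came from the genotype labels. Its columns for confidence limits and status hold nothing.

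The 40 members, the other lists and the rule for the genes named were chosen with earlier results of these data known. limma 3.58.1 (R 4.3.3) was fitted with eBayes and a trend on log2(FPKM + 0.1) for 13978 genes whose mean reached 0.5 FPKM, with 12 residual degrees of freedom and Benjamini-Hochberg adjustment over all of them. A second fit took genotype and Fos as terms. Single genes were compared by exact two-sided permutation tests, and correlations by 100000 permutations within genotype. The tests were checked on simulated data.

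Members were named with their value in every library by fixed roles (Fos, Arc, Npas4, Nr4a1, Egr2, Bdnf and Homer1), by any adjusted call, by an unadjusted p under 0.05 against control and a mean over 1 FPKM, or by being among the 2 highest or lowest differences. Coordinates and promoters are from RefSeq (GRCm38.p6). Alternatives were pseudocounts of 1 and 0.01, a filter at 2 FPKM or none, scaling by quantiles or by median ratios, a fit without the trend, sex as a covariate, replicate blocks, only the groups compared, Arc in place of Fos and each library left out. Python 3.11.15, pandas 2.3.3, numpy 2.4.6, scipy 1.17.1 and matplotlib 3.10.9 were used.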

Additional observations from a re-analysis of the deposited data

Results flagged for a closer look

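The 84 groups of 4 libraries behind the named members were searched for a library set apart from the rest, by Dixon's ratio of its gap to the range. There were 6 such groups, and chance gives about 4.2. Jun in β-cat cOEs (ratio 0.959) was 18.4 FPKM in replicate 4 and 17.2 to 17.3 FPKM in the others. Nr4a1 in controls (0.846) was 31.2 FPKM in replicate 4 and 18.6 to 20.5 FPKM in the others. Klf6 in APC/β-cat cKOs (0.927) was 14.2 FPKM in replicate 2 and 18.2 to 18.5 FPKM in the others. Cyr61 in controls (0.879) was 3.19 FPKM in replicate 2 and 1.42 to 1.63 FPKM in the others, and in APC/β-cat cKOs (0.832) it was 1.83 FPKM in replicate 4 and 2.96 to 3.19 FPKM in the others. Inhba in controls (0.850) was 2.47 FPKM in replicate 2 and 5.33 to 5.84 FPKM in the others. No cause of these values was tested.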

How the results depend on the processing

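Of 2331 values of 84 single-gene results under the alternatives, 57 changed sign, 8 fell short of the threshold, 1 passed it and 2265 kept both. All 8 were of Jun in APC/β-cat cKOs, out of its 28 alternatives. That was the only 1 of the 84 results under the threshold at first. For the other results, keeping both meant the same sign and still no call. Apart from fewer libraries, the cause was not tested in any case. Over all genes, same-numbered libraries did not deviate together (median correlations from -0.09 to -0.01). Over the 40 members alone the medians were -0.02, -0.07, -0.07 and, in the fourth column set, -0.45 (from -0.52 to 0.56). The numbers were therefore not taken to pair the mice. With the replicate block by title number or by column set (added after the data were seen), Jun was no longer called in APC/β-cat cKOs (0 members), and the slope on Fos called 4 and 1. That slope gave 0 without the 2 libraries farthest from the median of Fos, and 6 with Arc as the covariate. Without those libraries Fos and Npas4 gave r = 0.59 and rho = 0.69.

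Leaving out each library in turn, members called numbered 0 to 1 in APC cKOs (1 without replicate 2), 0 to 1 in APC/β-cat cKOs, 0 to 1 for any difference among the genotypes and 1 to 6 by the slope on Fos. The log2 differences that changed sign ran in β-cat cOEs from -0.49 to 0.18 for Npas4, -0.11 to 0.025 for Klf6, -0.40 to 0.33 for Arc, -0.20 to 0.020 for Bdnf, -0.10 to 0.14 for Fosb, -0.29 to 0.55 for Egr2, -0.082 to 0.23 for Egr4, -0.18 to 0.37 for Nr4a1, -0.031 to 0.18 for Per1, -0.30 to 0.15 for Inhba, -0.012 to 0.65 for Fos, -0.031 to 0.44 for Junb, -0.043 to 0.45 for Dusp1 and -0.043 to 0.46 for Nr4a2. In APC cKOs they ran from -0.18 to 0.24 for Inhba and -0.24 to 0.13 for Homer1. In APC/β-cat cKOs they ran from -0.12 to 0.55 for Npas4, -0.0086 to 0.35 for Ptgs2 and -0.14 to 0.19 for Egr4. In the elevated lines they ran from -0.070 to 0.025 for Klf6, -0.085 to 0.25 for Npas4, -0.028 to 0.25 for Nr4a1 and -0.00070 to 0.25 for Dusp1.

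Other changes of sign came with quantile normalization (Fosb -0.026 and Arc 0.0015 in β-cat cOEs), with sex as a covariate (Inhba 0.10 in β-cat cOEs, Npas4 -0.071 in APC/β-cat cKOs) and with the block by title number (Homer1 0.070 and Bdnf 0.015 in APC cKOs, Npas4 -0.14 in the elevated lines). Without both female libraries (added after the data were seen), Homer1 was 0.16 in APC cKOs, Inhba 0.10 in β-cat cOEs, Npas4 -0.12 in APC/β-cat cKOs and Klf6 0.017 in the elevated lines. The unknown depth sets no limit that could be computed.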
